A study of Mus musculus with 193 samples.

Results

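Wild-type (WT) germ cells from testes of mice at postnatal day 3 (P3) were divided by the amount of Id4 RNA in each cell. The classes were selected on measured Id4 RNA: of 71 WT P3 cells, 41 had Id4 above 10 RPM (reads scaled by each cell's total) and are called Id4-high, and 30 had 10 RPM or less and are called Id4-low. They belong to a series of 193 single cells, in which each deposited sample is 1 cell. All cells of the series had been sorted as positive for Id4-eGFP, a green fluorescent reporter of Id4 expression, so both classes had passed the same sort, whose gate is not stated. The other cells of the series are 53 WT cells from postnatal day 7 (P7) and 69 P3 cells labelled as knockout of Rhox10, an X-linked homeobox gene. Sample titles divide the WT P3 cells into set A, with 9 Id4-high and 7 Id4-low cells, and set B, with 32 and 23. What the letters stand for, how many animals were used and which strain they had is not given in the sources used here.

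Id4 encodes a small helix-loop-helix protein without a DNA-binding region. Proteins of this family pair with E proteins, the basic helix-loop-helix factors, and keep them from binding DNA, which holds back differentiation in many lineages. In the postnatal testis Id4 marks spermatogonial stem cells, the cells that sustain sperm production, and its reporter is commonly used to enrich them. In the first days after birth, prospermatogonia leave their arrest, and some of their descendants found the stem cell pool while others go on towards differentiation. The question addressed here was which other RNAs differed between P3 cells with much and with little Id4 RNA.

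Id4 itself (a protein-coding gene on chromosome 13, 48261228 to 48266026, plus strand, mm10) defined the classes, and its values are a description. In set A the lowest, median and highest Id4 values were 10.1, 18.7 and 43.6 RPM in Id4-high cells and 3.98, 7.54 and 9.67 RPM in Id4-low cells. In set B they were 10.4, 16.9 and 43.1 RPM against 0, 5.47 and 9.98 RPM. The values formed 1 continuous range with no gap at the threshold. Just below it stood cells at 9.73, 9.95 and 9.98 RPM, and just above it cells at 10.1, 10.4 and 11.3 RPM. Of the 71 cells, 44 had Id4 between 5 and 20 RPM. The counts behind the values were modest, with a median of 79 Id4 reads in Id4-high and 21 in Id4-low cells. For 28 of the 71 cells the exact 95% Poisson interval of the Id4 value included 10 RPM, so counting error alone could place them on the other side. These intervals cover counting error only. The classes are thus 2 ranges of 1 measure and not cell types.

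**Figure D1:**
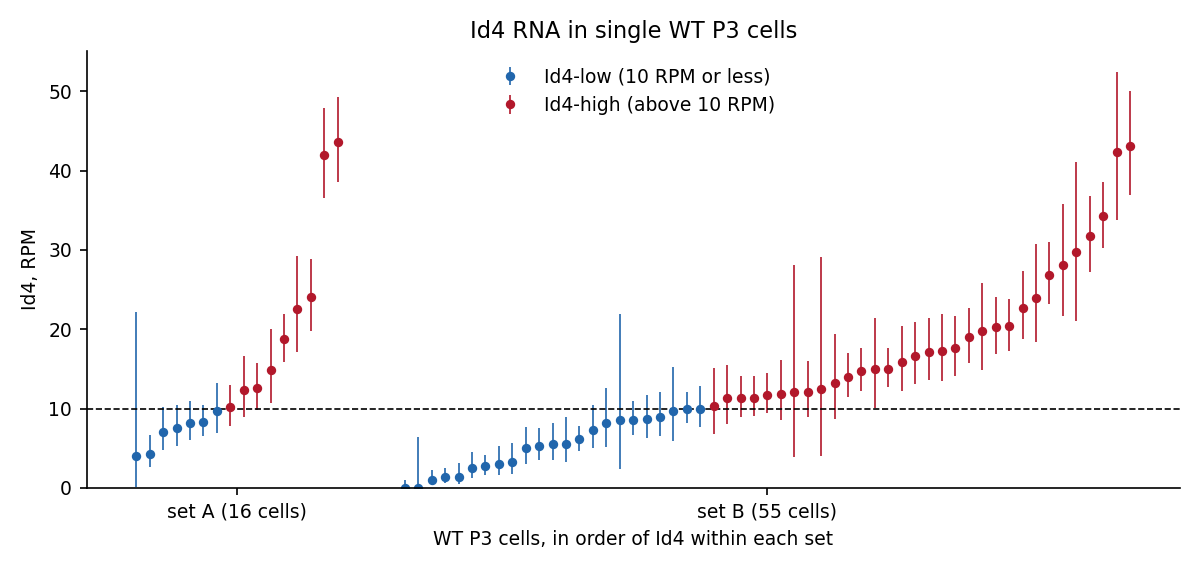
Id4 in each WT P3 cell, in RPM, ordered within set A (16 cells) and set B (55 cells), where bars are exact 95% Poisson intervals of the read count and the dashed line is the threshold of 10 RPM. Values run without a gap through the threshold, and the intervals of 28 cells include it.

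Both classes carried germ cell RNA. Ddx4 and Dazl, which encode germ cell RNA-binding proteins, were above 1 RPM in 41 of 41 Id4-high and 30 of 30 Id4-low cells. The summed level of 18 germ cell genes had medians of 1375 RPM (range 875 to 2516) and 1395 RPM (749 to 2511). Of the 15 Sertoli cell markers, 14 were above 1 RPM in at least 1 cell of each class. Their summed level had a median of 2.76 RPM (range 0 to 803) in Id4-high and 2.83 RPM (0 to 461) in Id4-low cells. Amh, the hormone gene of immature Sertoli cells, was above 1 RPM in 0 cells of either class. Of the other Sertoli cell markers, Wt1 was above 1 RPM in 8 of 41 Id4-high and 4 of 30 Id4-low cells, and Sox9 in 9 and 8. Clu, a gene abundant in Sertoli cells, was above 10 RPM in 8 Id4-high and 7 Id4-low cells, of which 5 and 3 were in set A. Summed markers of myoid and stromal cells had medians of 4.59 and 2.20 RPM, those of endothelial cells 8.47 and 8.01 RPM, and those of leukocytes 3.06 and 4.26 RPM in Id4-high and Id4-low cells. Medians of Leydig cell markers were 0 and 0.082 RPM, and those of erythroid markers were 0 RPM in both classes. Cyp11a1 and Lhcgr of Leydig cells and Ptprc of leukocytes were at 0 in every cell. Other members of these lists were present. The mean log2(RPM + 1) was 0.60 for Star of Leydig cells, and 1.87 for Fcer1g and 0.59 for Cd68 of leukocytes.

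Depth and complexity differed between the classes in set A more than in set B. Median totals per cell were 5215504 reads in Id4-high and 4425188 in Id4-low cells of set A, and 4284121 and 4242912 in set B. The median number of genes above 1 RPM was 7619 against 6335 in set A and 7022.5 against 7072 in set B. After each cell was thinned to 150000 reads on genes, which left out 3 Id4-high and 4 Id4-low cells, the median number of genes with a read was 8252 against 7453.5 in set A and 8035 against 8165.5 in set B. Reads on genes made up a median of 127377 RPM against 101078 RPM in set A and 103990 against 108695 RPM in set B. ERCC reads had medians of 1.08% against 1.41% in set A and 0.744% against 0.755% in set B. Spearman's rho of Id4 with the number of genes above 1 RPM was 0.56 over the 16 cells of set A and -0.07 over the 55 cells of set B. These are descriptions over cells that share a set. The part of this imbalance in the differences below was addressed by a fit with the number of genes above 1 RPM as a term.

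Few genes separated the classes in the same way in both sets. Differences are Id4-high minus Id4-low means of log2(RPM + 1), taken within each set and combined with more weight on the larger set B (0.77 against 0.23), and Id4 was left out. Since the labels name no animals, the WT P3 cells count as 1 sample, and no test, standard error or p-value was computed. A gene was counted as different when its mean level reached 2, its difference reached 1 in size, and sets A and B gave it 1 sign. Of 4790 genes compared, 10 were higher in Id4-high cells (0.209% of those compared) and 2 were lower (0.0418%). These percentages are the background against which members of gene lists are read. With the number of genes above 1 RPM as a term the counts were 6 and 1, without the cells with Clu above 10 RPM 26 and 3, and with the sets weighted equally 113 and 16.

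The gene with the largest positive difference was Fam49a, which encodes a protein that binds the GTPase RAC1. In set A its lowest, median and highest values were 0.49, 21.3 and 49.4 RPM in Id4-high and 0, 0.36 and 13.7 RPM in Id4-low cells. In set B they were 0, 5.85 and 27.6 RPM against 0, 1.26 and 25.7 RPM. The difference was 1.22, with 2.35 in set A and 0.89 in set B. Id4-high cells had the higher median in both sets, but single cells of the classes overlapped.

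Rnf2 (chromosome 1, 151458004 to 151500955, minus strand) encodes RING1B, the ubiquitin ligase of Polycomb repressive complex PRC1. It had 3.73, 20.6 and 42.7 RPM (lowest, median, highest) in Id4-high and 0.23, 7.95 and 88.5 RPM in Id4-low cells of set A. The corresponding values in set B were 0, 26.5 and 147 RPM against 0, 13.3 and 45.3 RPM. Its difference of 1.15 on the log scale was similar in the sets, at 1.08 and 1.16. Mean RPM, however, was 23.1 against 23.3 in set A and 33.999 against 16.5 in set B, so the higher level in set A did not hold for averaged RPM. The highest cell of set A was an Id4-low cell.

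Naa15 (chromosome 3, 51415148 to 51476507, plus strand) encodes the ribosome-anchoring subunit of the NatA N-terminal acetyltransferase. Its values were 1.95, 30.2 and 88.7 RPM in Id4-high and 0, 6.70 and 37.9 RPM in Id4-low cells of set A. In set B they were 7.43, 38.6 and 116 RPM against 2.36, 23.6 and 87.2 RPM. The difference was 1.09, with 1.92 in set A and 0.84 in set B. Of the genes higher by at least 1, Naa15 alone also had a mean level of at least 4.

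Dcaf12, a substrate receptor of CUL4 ubiquitin ligases, differed by 1.09 (0.91 in set A and 1.14 in set B). Its medians were 17.3 against 4.97 RPM in set A and 9.37 against 3.54 RPM in set B. Hs2st1, which encodes the 2-O-sulfotransferase of heparan sulfate, differed by 1.08 (0.70 and 1.19), with medians of 6.47 against 1.61 RPM in set B. Levels in set A were low, with means of 5.39 against 2.02 RPM. Its rho with Id4 was -0.03 in set A and 0.34 in set B. Heparan sulfate is a coreceptor for fibroblast growth factors. The transmembrane channel-like gene Tmc7 differed by 1.04, the chromodomain gene Cdyl2 by 1.02, the HECT ubiquitin ligase gene Wwp1 by 1.01 and Gnpda2, an enzyme of hexosamine metabolism, by 1.01. The last of the 10, 5430417L22Rik (1.17), has only a clone name and is given here to complete the count. Except for Dcaf12, Hs2st1 and Rnf2, all of the 10 had a larger difference in set A than in set B.

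Epb4.1l3 (chromosome 17, 69075683 to 69289989, plus strand), which encodes a band 4.1 protein linking the membrane to the cytoskeleton, was lower in Id4-high cells. In set A its lowest, median and highest values were 0, 5.01 and 13.3 RPM in Id4-high and 5.97, 12.8 and 19.7 RPM in Id4-low cells. In set B they were 0, 4.35 and 27.2 RPM against 1.18, 11.1 and 45.05 RPM. The difference was -1.24, with -1.25 in set A and -1.24 in set B. It was above 1 RPM in 30 of 30 Id4-low and 32 of 41 Id4-high cells, and the classes overlapped in both sets.

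Jhdm1d, also named Kdm7a, encodes a histone demethylase for repressive lysine marks. Its values were 0, 1.96 and 4.94 RPM in Id4-high and 2.84, 18.6 and 51.5 RPM in Id4-low cells of set A. In set B they were 0, 3.97 and 38.4 RPM against 1.42, 6.21 and 39.2 RPM. The difference of -1.01 came from -2.62 in set A and -0.53 in set B. The sets shared the direction, which the choice of genes required, and differed in size, and the classes overlapped.

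**Figure D2:**
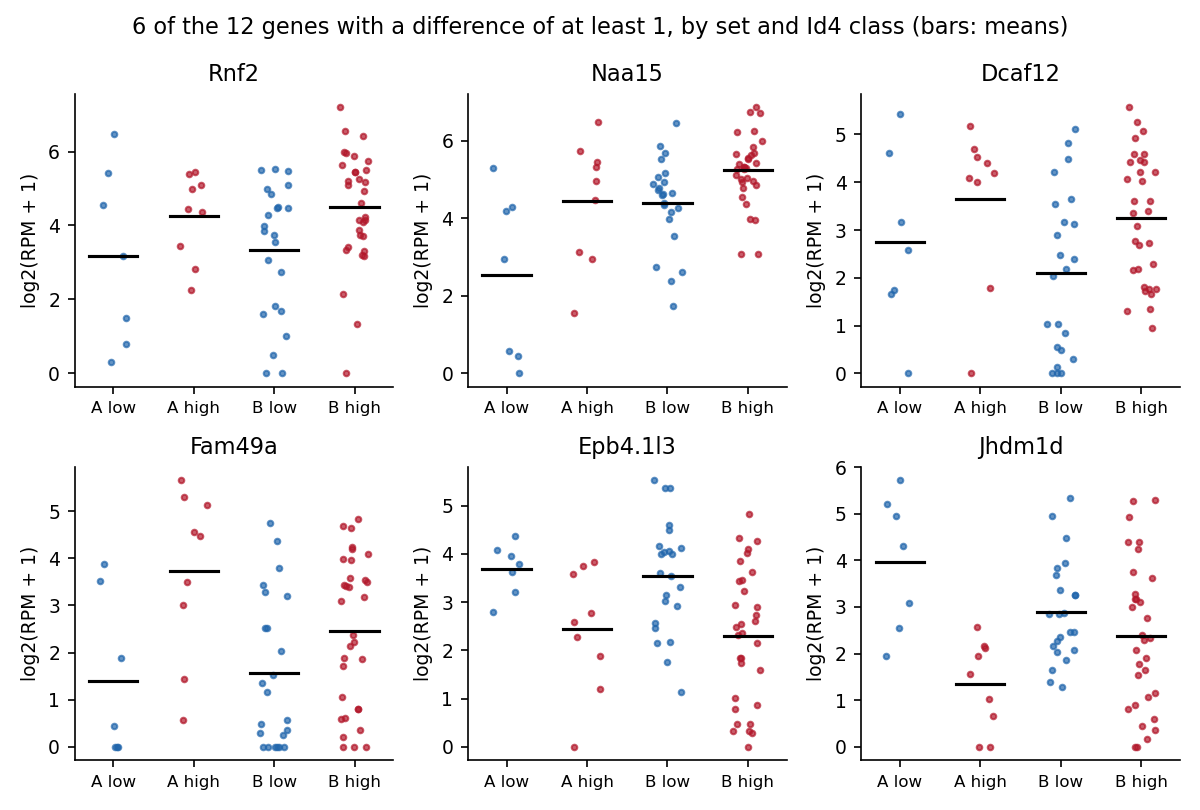
Levels of 6 of the 12 genes in single WT P3 cells as log2(RPM + 1), by set and Id4 class, where points are cells and bars are means. The means are ordered the same way in sets A and B because the genes were chosen for this, and the cells of the classes overlap.

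Genes with smaller differences of 1 sign in both sets completed the 12 highest and 12 lowest with proper names. Elavl2, a germline and neuronal RNA-binding protein gene, Frs2, the adaptor of FGF receptors, and Mff, the mitochondrial fission factor, were just under the threshold at 0.99, 0.99 and 0.97. At the other end stood Mapkapk5, a kinase downstream of MAP kinases (-0.91), Ero1l, an oxidase of the endoplasmic reticulum (-0.90), and Prkdc, the catalytic subunit of the DNA repair kinase DNA-PK (-0.88). Slc25a36, a mitochondrial nucleotide carrier, was at -0.87, the nuclear pore gene Tmem48 at -0.85, the Wnt effector Tcf7l2 at -0.83 and Casp2, a caspase, at -0.82. The cadherin gene Fat1 and Cdr2 were at -0.79, and Polg, the mitochondrial DNA polymerase, at -0.77.

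The rest of the transcriptome showed no relation between the sets. Across the 4790 genes, Pearson's r between the differences in set A and in set B was 0.01, and Spearman's rho was 0.02. Genes are not independent replicates, and these values describe this pair of sets. The sign was the same in both sets for 51.5% of the genes, with 1868 higher in both (39%) and 599 lower in both. In the combined difference 66.6% were higher and 33.4% lower, without regard to size. Of 9 genes higher by at least 1 in set B, 5 were also higher in set A (55.6%, against 74.7% of all genes compared). Of 1033 genes higher by at least 1 in set A, 537 were higher in set B (51.98%, against 51.8% of all). Of 190 genes lower by at least 1 in set A, 95 were lower in set B (50%, against 48.2% of all), and of 5 lower in set B, 1 was lower in set A (20%, against 25.3% of all). For the 1033 and 190 genes picked in set A, the shares in set B were thus close to those of genes in general, and the 9 and 5 genes picked in set B are too few to compare. The median over all genes was 0.46 in set A and 0.01 in set B, so most genes were listed higher in the Id4-high cells of set A, which were also the cells with more genes detected. When values were rescaled to genes detected in nearly all cells, the combined median moved from 0.11 to 0.02. That step brings the mean level of 1975 genes to nearly the same value in every cell. A smaller median thus follows in part from the rescaling itself, and the source of the shift was not tested.

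**Figure D3:**
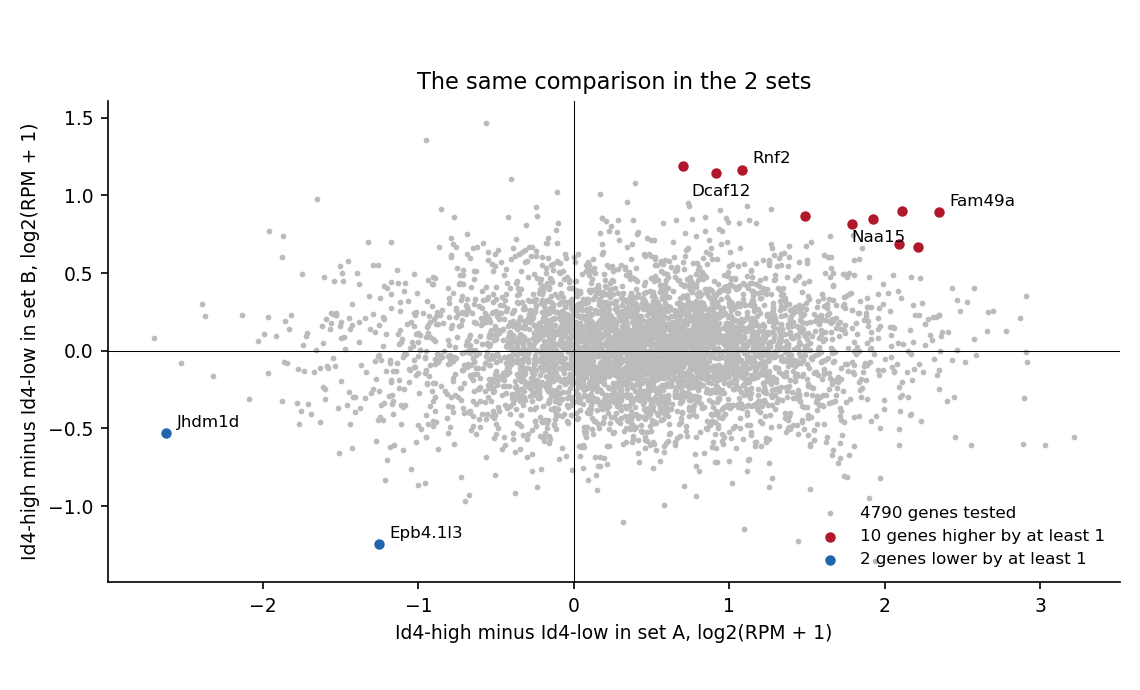
Difference between Id4-high and Id4-low cells in set A (horizontal) and in set B (vertical), log2(RPM + 1), for 4790 genes. The 10 genes higher and the 2 genes lower by at least 1 lie at the edges of a cloud in which the sets show no relation (r of 0.01).

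Partners and relatives of ID4 were examined first among the gene lists. List members count as measured from a mean level of 0.5. The measured genes number 9746, of which 62.4% were higher in Id4-high cells and 37.6% lower. The sign was the same in both sets for 49.6% of them: 35.4% were higher in both sets and 14.2% lower in both, with a median of 0.08 (0.37 in set A and -0.01 in set B). This background moved with the settings. The share higher was 53.4% after rescaling to stably detected genes and 53.6% with the number of genes above 1 RPM as a term. With the Id4 threshold at 5 RPM, which split the cells 59 against 12, it was 46.6% (median -0.03). Of the 8 genes of ID proteins, E proteins and their relatives, 6 were measured, and 4 were higher and 2 lower, with a median of 0.05. Tcf4, an E protein gene, had medians of 7.93 against 1.21 RPM in set A and 7.39 against 5.41 RPM in set B, a difference of 0.57. Tcf3, which encodes the E proteins E12 and E47, was at 0.32, and Tcf12 at 0.01. Id3 was at -0.09, and Id1 and Id2 were below the floor. None of the 6 reached a difference of 1, but few genes of any kind did (0.209% higher and 0.0418% lower of those compared). Members with a mean level below 2, such as Tcf3 and Id3, could not be counted as different.

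Stem cell genes were mostly listed higher in Id4-high cells by small margins. Of 20 listed, 14 were measured, and 13 of these were higher and 1 lower, 6 of them higher in both sets and 0 lower in both. Over all measured genes, 62.4% were higher, 35.4% higher in both sets and 14.2% lower in both. The 6 below the floor were Nanos2, Pax7, Pdx1, Plvap, Shisa6 and Utf1. The list's median was 0.20, against 0.08 over all measured genes, and none of the 14 reached a difference of 1. Of all genes compared, 0.209% were counted as higher and 0.0418% as lower by at least 1. Lhx1, Pou3f1, Eomes, T, Foxc2 and Cd82 had mean levels below 2 and could not be counted. Set A gave a median of 1.07 and set B 0.12, with 10 of 14 higher in each (71.9% of all measured genes were higher in set A and 49.3% in set B). Over cells, rho of Id4 with the mean level of the 14 genes was 0.56 in set A (16 cells) and 0.28 in set B (55 cells), while rho of Id4 with the mean over all genes compared was 0.67 and -0.06.

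Eomes, a T-box transcription factor gene of a subset of stem cells, had the largest difference of the list at 0.78 (1.62 in set A and 0.54 in set B). It was near the limit of detection in most cells, with lowest, median and highest values of 0, 2.81 and 21.8 RPM in Id4-high and 0, 0 and 25.5 RPM in Id4-low cells of set B. Etv5, a GDNF-induced factor needed for stem cell maintenance, had medians of 17.2 against 12.1 RPM in set A and 17.1 against 15.7 RPM in set B, and differed by 0.55. Tspan8, a tetraspanin gene, was at 0.57, Egr2 at 0.53, Bcl6b, a GDNF-responsive repressor, at 0.32 and Ret, the GDNF receptor kinase, at 0.19. Gfra1, the GDNF coreceptor, had medians of 18.6 against 8.14 RPM in set A and 17.8 against 17.04 RPM in set B, a difference of 0.11. T was the 1 gene listed lower, at -0.05.

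The margin of the stem cell list varied with the choice of cells. Without the 15 cells with Clu above 10 RPM, its median was 0.07 against 0.11 for all measured genes, and 6 of 14 members lay above that of all genes. With all 71 cells, 10 of 14 lay above it. With the reads thinned, the median was 0.36 against 0.04 and 12 of 14 lay above. With the Sertoli cell level as a term the list's median was 0.20 against 0.09.

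**Figure D4:**
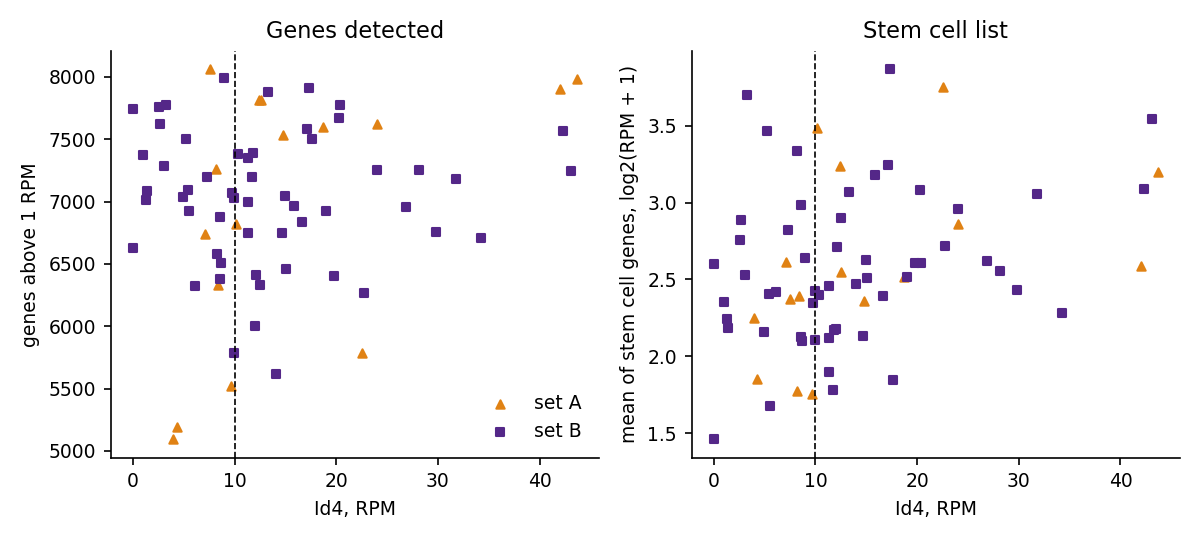
Genes above 1 RPM (left) and mean log2(RPM + 1) of the 14 measured stem cell genes (right) against Id4 in RPM for the 71 WT P3 cells, where triangles are set A, squares are set B and the dashed line is the threshold of 10 RPM. In set A the number of genes follows Id4 with a rho of 0.56, and in set B with a rho of -0.07.

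Progenitor genes gave a median of 0.18, with 9 of 13 measured members higher and 4 lower, 7 higher in both sets and 1 lower in both. Taf4b, a transcription initiation subunit of germ cells, was at 0.50 (0.40 in set A and 0.54 in set B), Zbtb16, which encodes PLZF, at 0.43 (0.70 and 0.35) and Dmrt1 at 0.35. Sall4, a zinc finger factor, and Lin28a had differences of opposite sign in the sets. The cyclin gene Ccnd1 was at -0.44 (-1.09 and -0.24). No member reached a difference of 1, a size counted for 0.209% (higher) and 0.0418% (lower) of all genes compared. Nanos3 and Upp1 had mean levels below 2 and could not be counted.

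Among differentiating and early meiotic genes, 10 of 17 measured members were higher and 7 lower, with a median of 0.13 (0.24 in set A and -0.06 in set B). Kit, the receptor of differentiating spermatogonia, had lowest, median and highest values of 0, 1.67 and 32.8 RPM in Id4-high and 0, 12.6 and 46.1 RPM in Id4-low cells of set A. In set B they were 0, 3.87 and 26.003 RPM against 0, 6.10 and 44.4 RPM. Its difference was -0.49, with -1.50 in set A and -0.20 in set B. Dnmt3b, a de novo DNA methyltransferase that marks the onset of differentiation, had medians of 0.35 against 8.38 RPM in set A and 5.33 against 7.20 RPM in set B, a difference of -0.67. Both genes were lower in Id4-high cells of either set, and the classes overlapped. Stra8, a retinoic acid target of meiotic entry, was at -0.06, and Sohlh2 at 0.15. The largest positive value of the list was that of Gm1564, an older name of the meiotic gene Meioc, at 0.87 (0.24 and 1.05).

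GDNF and FGF signalling genes had a median of 0.11, with 15 of 21 measured members higher and 6 lower, 8 higher in both sets and 1 lower in both. The shares over all measured genes were 62.4% higher, 35.4% higher in both sets and 14.2% lower in both. Frs2 had lowest, median and highest values of 2.09, 9.52 and 24.4 RPM in Id4-high and 0, 2.49 and 10.3 RPM in Id4-low cells of set A. In set B they were 0, 9.20 and 39.4 RPM against 0, 4.39 and 15.3 RPM. Dusp6, an ERK phosphatase induced by this pathway, differed by 0.69, with 2.31 in set A and 0.22 in set B. The adaptor gene Shc1 and the kinase gene Map2k2 were at 0.51. Sos1, the exchange factor that activates RAS, was the member lower in both sets, at -0.56 (-0.63 and -0.53).

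BMP and TGF-beta signalling, the pathway that induces Id genes in many cells, had a combined median of -0.08, with 5 of 15 measured members higher and 10 lower. The medians within the sets were both positive, at 0.14 in set A and 0.05 in set B, and the combined median ran from -0.26 to 0.21 over the alternative settings, so the list had no stable direction. Smad7, an inhibitory SMAD that is itself a pathway target, was at 0.83 (0.88 in set A and 0.81 in set B). Its lowest, median and highest values were 0, 3.56 and 9.34 RPM in Id4-high and 0, 0.24 and 15.4 RPM in Id4-low cells of set A. In set B they were 0, 2.36 and 10.6 RPM against 0, 0.15 and 5.92 RPM. Its mean level of 1.30 was below the floor of 2, so it was not among the genes compared. The receptor gene Tgfbr1 was at -0.58 (0.14 and -0.80) and Smad4, the shared SMAD, at -0.52 (0.21 and -0.73).

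The S phase list and the G2 and mitosis list had combined medians near 0 at the threshold of 10 RPM, which moved with the settings. Of 30 S phase genes, 9 were higher and 21 lower (median -0.08, with -0.19 in set A and -0.05 in set B), and 11 were lower in both sets. Cdc6, a replication licensing factor, was at -0.70 and Slbp, which binds histone mRNA, at 0.43. Of 31 genes of G2 and mitosis, 12 were higher and 19 lower, with a median of -0.04 that was -0.64 in set A and 0.06 in set B. The G2 and mitosis median was -0.39 with the Id4 threshold at 20 RPM (15 against 56 cells). It was -0.34 without cells between 5 and 20 RPM (15 against 12 cells) and -0.33 with the sets weighted equally. The S phase median was -0.32 with the threshold at 5 RPM (59 against 12 cells). The kinesin genes Kif2c and Kif20b were at -0.65 and -0.64, mainly from set A. Of 15 regulators of G1, 14 were higher, 9 of them in both sets, with a median of 0.18 (0.46 in set A and 0.07 in set B). Of all measured genes, 62.4% were higher and 35.4% higher in both sets, with a median of 0.08 (0.37 and -0.01). With the Id4 threshold at 5 RPM this G1 median was -0.04. The highest member at 10 RPM was Cdkn1c, a CDK inhibitor, at 0.58 (0.46 and 0.61), and the 1 lower was Ccnd1.

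Metabolic and translation genes were mostly listed higher in Id4-high cells at the threshold of 10 RPM, with larger medians in set A. So were 62.4% of all measured genes, with a median of 0.08 (0.37 in set A and -0.01 in set B). Of 27 oxidative phosphorylation genes 24 were higher (median 0.17, with 0.56 in set A and 0.06 in set B), and of 32 cytosolic ribosomal protein genes 27 were higher (median 0.10, with 0.36 and 0.02). After rescaling to genes detected in nearly all cells, these medians were 0.10 and 0.02. Of 18 glycolysis genes 12 were higher, with a median of 0.10 (0.42 and -0.01) and the hexokinase gene Hk1 at 0.76 (1.43 and 0.57). The glycolysis and ribosomal protein medians were thus close to those of all measured genes. With the Id4 threshold at 5 RPM the direction turned for the medians of all 3 lists, to -0.09 for oxidative phosphorylation, -0.14 for ribosomal proteins and -0.05 for glycolysis. The median of all measured genes turned as well, to -0.03. With cells between 5 and 20 RPM left out, the ribosomal median was -0.03. The threshold at 5 RPM left 59 cells above and 12 below. In set A only the cells at 4.29 and 3.98 RPM were below, and the cell at 3.98 RPM held 1 Id4 read. Leaving out the middle range left 15 cells above and 12 below it. Of 14 measured p53 and apoptosis genes, 11 were higher, with a median of 0.19 (0.98 and -0.01). Mdm2, which encodes the ubiquitin ligase of p53, was at 0.72 (1.25 and 0.57) and Bax, a death effector, at 0.68 (1.53 and 0.43).

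Immediate early and dissociation response genes had a median of 0.02, with 12 of 21 measured members higher. Fosb was at -0.61 (-0.42 in set A and -0.67 in set B), Fos at -0.16 and Dusp1 at 0.30, which was 2.40 in set A and -0.32 in set B. Genes of prospermatogonia and the piRNA pathway had a median of 0.06 (0.54 in set A and -0.08 in set B), with Tdrd1 at -0.45 and Tdrkh at 0.49, both of the same sign in either set. The pan germ cell list was at 0.16, with Brdt, a bromodomain gene of meiotic cells, at -0.58. The median was 0.14 for pluripotency genes (0.35 in set A and 0.05 in set B). For the next lists the sets gave medians of opposite sign: 0.07 for DNA methylation (0.26 and -0.05), 0.03 for surface and adhesion (0.56 and -0.14), -0.08 for retinoid signalling (0.75 and -0.26) and 0.24 for 3 measured Rhox genes (1.07 and -0.01). Rhox10 itself was at -0.08 (0.35 and -0.21) and Rhox5 at 0.42 (1.43 and 0.12). Medians of the marker lists also had opposite signs in the sets, at -0.05 for 3 Sertoli cell genes (0.53 and -0.26) and 0.00 for 3 endothelial genes (-0.07 and 0.02).

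**Figure D5:**
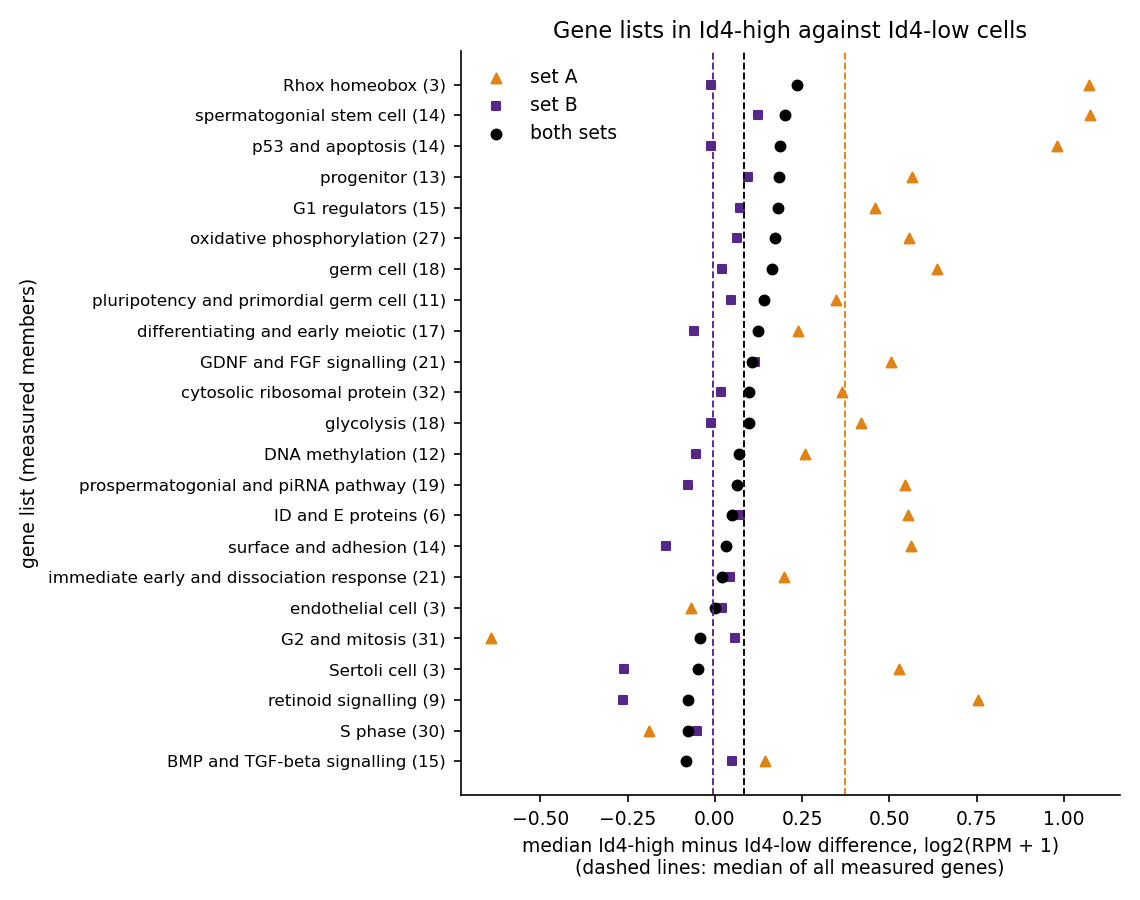
Median difference between Id4-high and Id4-low cells for each gene list with at least 3 measured members, log2(RPM + 1), in set A (triangles), set B (squares) and both combined (circles), where dashed lines in the same colours are the medians of all measured genes. Set A values spread from -0.64 to 1.07, and set B values from -0.26 to 0.12.

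Genes whose level followed that of Id4 most closely over the 71 cells were ranked by Spearman's rho within each set, weighted by cells. The 6 highest were Naa15 (0.44), Ube2q1, a ubiquitin-conjugating enzyme gene (0.43), Snx6, a retromer component (0.42), Mpp5, a cell polarity scaffold (0.39), Acot10, a thioesterase gene (0.39), and Elavl2 (0.39). The 6 lowest were Epb4.1l3 (-0.44), Dhcr7, the last enzyme of cholesterol synthesis (-0.43), 2610015P09Rik (-0.39), Leprot (-0.35), Tmem48 (-0.34) and Birc6 (-0.33). Snx6 was above 1 RPM in every cell, with medians of 85.3 against 41.5 RPM in set A and 79.6 against 55.8 RPM in set B, and a difference of 0.63. These correlations are weak and describe cells of unequal depth that share a set.

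The same threshold was then applied to cells that had no part in choosing the genes with a difference of at least 1. The gene lists, however, were chosen with earlier results of these data known. For list members these cells are therefore no independent check. At P7, 17 of 53 WT cells had Id4 above 10 RPM, and among P3 cells labelled knockout 12 of 69 did, against 41 of 71 WT P3 cells. Of the 10 genes higher in Id4-high WT P3 cells, 7 were higher in Id4-high cells at P7 (54.9% of all genes compared were) and 7 in those labelled knockout (54.1% of all). Some of these were near 0: Dcaf12 had 0.0014 at P7, and Rnf2 and 5430417L22Rik had 0.0035 and 0.030 in cells labelled knockout. Tmc7 had 1.74 at P7 and 1.40 in cells labelled knockout, whereas Rnf2 had 0.11 and 0.00 and Naa15 -0.14 and 0.25. Epb4.1l3 was lower in both, at -0.57 and -0.55, as was Jhdm1d, at -0.63 and -0.17. Single sets went the other way: Epb4.1l3 was at 0.25 in set A of P7, and Jhdm1d at 0.21 in set C of the cells labelled knockout. Among the higher genes, Rnf2 was at -1.58 and Hs2st1 at -1.65 in set A of P7, and Wwp1 at -0.12 in set B of P7. Tmc7 was higher in every set. Set A of P7 and sets A and B of the cells labelled knockout held only 2 Id4-high cells each. Of the 14 measured stem cell genes, 13 were higher in Id4-high cells at P7 (50.5% of all measured genes were), with a median of 0.53 against 0.01. In cells labelled knockout 10 were higher (53.2% of all), with a median of 0.04 against 0.03. Etv5 was at 0.96 and Ret at 0.99 at P7, against 0.55 and 0.19 at P3. Kit was at -1.21 at P7, -0.49 in WT P3 cells and 0.56 in cells labelled knockout. Stra8 was at -2.57 at P7, -0.06 in WT P3 cells and -0.72 in cells labelled knockout. Whether these differences between ages or labels exceed chance was not tested, since each group is 1 sample.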

How the data were processed

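The authors deposited 1 table with 19642 rows and 193 cells, no 2 of them identical (0 identical columns). It is named as TPM, but its values were RPM: at least 99.3% of the deposited values in any cell were a whole number of steps of 1 size for all genes (tolerance 0.001 RPM), so levels of different genes are not on a per-length scale. Per the submitters' processing notes, STAR 2.3.0, HTSeq 0.6.1 and mm10 were used, without their roles. The table's rows made up 8.31% to 18.8% of the total behind the RPM in WT P3 cells. Per the labels' protocols, cells sorted for green fluorescence went through a Fluidigm C1 system with the SMARTer kit and ERCC spike-ins. ERCC rows (84) and Rn45s were left out.

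Reads were recovered from the steps, with Python 3.11.15, numpy 2.4.6, pandas 2.3.3 and scipy 1.17.1. The pseudocount was 1. The labels name no animals, so no count test was run on the recovered reads. The scripts were tested on simulated data. The members, the 27 gene lists and the comparison were chosen with earlier results of these data known. Genes named were the 12 highest and 12 lowest differences of 1 sign in both sets, without clone or predicted names, list members, and the 6 highest and 6 lowest correlations with Id4. Older symbols were matched through RefSeq synonyms, and positions are from GENCODE M21 (mm10). Alternatives comprised 22 settings. The thinning depth (150000 reads on genes) and the share that made a gene stably detected (97% of cells) were set after the depths had been seen.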

Additional observations from a re-analysis of the deposited data

How the results depend on the processing

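The counts of genes with a difference of at least 1 depended on most settings, and the cause was not tested except where fewer cells or genes entered by construction. Against 10 higher and 2 lower genes, a pseudocount of 0.1 gave 136 and 32, a pseudocount of 10 gave 0 and 0 (no test was made in any setting), and a floor on the mean level of 4 gave 1 and 0. An Id4 threshold of 5 RPM (59 against 12 cells) gave 49 and 34, and a threshold of 20 RPM (15 against 56 cells) gave 29 and 13. Leaving out cells with Id4 between 5 and 20 RPM, which left 15 against 12 cells, gave 144 and 60. These were largely other genes. Of the original 10 and 2, only 3 and 1 were counted again at 5 RPM and 1 and 1 at 20 RPM. Without the middle range, 7 and 1 were. Equal weights for the sets gave 113 and 16, set A alone 1033 and 190, and set B alone 9 and 5. Values scaled to the reads on genes, where 8475 genes passed the floor, gave 228 and 113, thinned reads 302 and 214, and rescaling to stably detected genes 6 and 4. Medians over cells gave 86 and 23, RPM averaged before the logarithm 8 and 1, and leaving out the cells with Clu above 10 RPM 26 and 3. The number of genes above 1 RPM as a term gave 6 and 1, the level of G2 and mitosis genes 11 and 1, and that of Sertoli cell genes 10 and 1. Under an Id4 threshold of 5 RPM, Gnpda2 turned to -0.092, and the other 10 of the named genes among the 12 kept their sign in all 22 settings. Part of this was fixed in advance. A change of the floor leaves each difference as it was. For genes chosen with 1 sign in both sets, a single set or equal weights cannot turn the sign. The median of the stem cell list was positive in all 22, from 0.06 to 1.07. That of all measured genes was also positive in most settings, so the sign alone does not set the list apart. Without the cells with Clu above 10 RPM the list's median was below that of all measured genes (0.07 against 0.11). Medians of most other lists changed sign in at least 1 setting. Of the genes just short of a difference of 1 or among the 12 lowest, Frs2, Mff, Casp2 and Slc25a36 kept it in 21. The share of genes with the same sign in both sets ran from 41.3% to 55.5%. No paired analysis was possible because cell numbers in the titles name cells and pair nothing.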
